A study of Homo sapiens with 6 samples.

Results

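Interferon-stimulated genes are the genes that cells turn on when interferon binds its receptors, and 57 of them were listed by symbol to ask how they responded to quisinostat, a pan-HDAC inhibitor, in 3 bladder cancer (BC) cell lines. The deposited table holds 46 of the 57, on 45 of its 10066 assembled loci. The other 11 (ISG20, IFI27, IFI44L, IRF7, IRF9, DDX60, DHX58, HERC5, RSAD2, XAF1 and CMPK2) were not analysed here. The list was drawn up after ISG15 had been seen to move in opposite directions between the lines, so the values of ISG15 are given as a description. The groups were RT4 cells (FGFR3-TACC3 fusion) with DMSO or 50 nM quisinostat, RT112 cells (FGFR3-TACC3 fusion) with DMSO or 10 nM quisinostat, and SW780 cells (labelled FGFR3-BAIBP2L1 fusion) with DMSO or 25 nM quisinostat, each for 2 days. Each of the 6 groups was 1 library of polyadenylated RNA from 1 established line, with no added interferon named in the labels. RT4 cells were grown in McCoy's 5A medium and the others in DMEM, so line, dose and medium change together and cannot be told apart.

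Interferons reach cells from their surroundings or are made by the cell itself after its sensors meet double-stranded RNA or stray DNA. Receptor-bound JAK1 and TYK2 then phosphorylate transcription factors such as STAT2, which acts with IRF9 at a short element, the interferon-stimulated response element, in the promoters of these genes. Their products cut or bind viral RNA, block entry or release of virus, or attach the ubiquitin-like protein ISG15 to other proteins, and many epithelial tumours express part of the programme without infection.

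The core of the element was looked for as 2 copies of GAAA on the same strand with any 2 bases between them, or of TTTC in the same way for the other strand, in RefSeq windows from 250 bases before to 50 bases after each gene start (GRCh38.p14). Matches that overlap were counted separately. Of the 57 genes, 47 had a window, 46 by symbol and DDX58 under its newer symbol, and 31 of these (66.0%) held a match, against 4.38% of the 27305 genes with a window. The stretches below are from genes with a match whose responses are described further on. They include 4 of the genes with a log2 ratio over 1 in at least 2 lines. The other 3 are those that were higher in RT112 cells and lower in both other lines. UBE2L6, SP110 and IFI16 were also over 1 in 2 lines, and their windows held no match. They read 5′ to 3′ on the strand of the gene, all lie upstream of its start, and capitals mark the matches.
IFI6 (chr1:27672261-27672363, minus strand): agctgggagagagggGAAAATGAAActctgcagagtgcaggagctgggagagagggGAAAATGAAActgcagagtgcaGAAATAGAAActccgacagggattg
IFIH1 (chr2:162318685-162318858, minus strand): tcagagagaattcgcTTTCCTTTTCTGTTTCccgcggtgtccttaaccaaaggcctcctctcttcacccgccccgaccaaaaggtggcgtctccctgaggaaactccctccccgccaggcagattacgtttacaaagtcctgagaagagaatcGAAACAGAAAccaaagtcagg
IFIT1 (chr10:89392492-89392544, plus strand): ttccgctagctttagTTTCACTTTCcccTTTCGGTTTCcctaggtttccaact
BST2 (chr19:17405730-17405775, minus strand): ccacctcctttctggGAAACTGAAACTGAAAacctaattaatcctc
ISG15 (chr1:1013369-1013414, plus strand): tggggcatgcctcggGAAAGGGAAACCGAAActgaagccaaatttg
IFITM3 (chr11:320871-320927, minus strand): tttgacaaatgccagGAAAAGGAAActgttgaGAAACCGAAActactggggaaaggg
LGALS3BP (chr17:78979957-78979996, minus strand): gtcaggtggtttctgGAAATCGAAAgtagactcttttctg
The matches of ISG15 begin 113 and 107 bases upstream of the start and overlap, as do those of BST2, at 130 and 124 bases. IFI6 held 3 matches, 156, 115 and 93 bases upstream. Genes with and without a match had medians of the same sign in each line. Among 37 genes with a window and a ratio, the 24 with a match had median log2 ratios of 0.71, 0.45 and -0.42 (RT4, RT112 and SW780 cells in this order), and the 13 without had 0.90, 0.30 and -0.32.

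Expression is given as FPKM, fragments counted per length of transcript and scaled to the mapped fragments of the library, so depth is unknown and no counting interval can be given. The response is the log2 ratio of quisinostat over DMSO in the same line, and a locus was called higher above 0.3 and lower below -0.3, the limit the study set for lower genes, applied here in both directions. With 1 library a group, no ratio has a replicate check and no difference between lines was tested. All 17 urothelial and epithelial markers looked up were in the table, with a summed FPKM between 1034 and 2552 in a library, and none of the 8 blood and immune or 3 endothelial markers was among its names. Of 5 stromal markers COL1A1 and COL3A1 were found, with a sum of at most 6.66. Ratios moved with the GC content of transcripts (GENCODE 29), in opposite directions between lines. Across 8407 loci Spearman's correlation, over genes that are not independent, was -0.49 for RT4, 0.44 for RT112 and -0.22 for SW780 cells. GC-corrected values, after subtraction of a smooth curve of ratio on GC content, are therefore given beside the results they touch. The part of GC content in them was not tested.

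The interferon-stimulated genes did not follow ISG15 as a set. More of them were higher than lower with quisinostat in RT4 and RT112 cells, and more were lower than higher in SW780 cells. Among the 44 loci above 0 in all 6 libraries, 28 were higher and 10 lower in RT4 cells, where 40.3% of all 9112 such loci were higher and 33.5% lower. In RT112 cells 23 were higher and 10 lower, beside 36% and 25.2% of all loci. SW780 cells showed the opposite balance, with 10 higher and 23 lower, beside 32.8% and 28.2%. As shares of the 44, the higher ones were 63.6% in RT4 and 52.3% in RT112 cells, and the lower ones 52.3% in SW780 cells. The median log2 ratio of the members was 0.82, 0.34 and -0.35 in RT4, RT112 and SW780 cells, beside 0.08, 0.06 and 0.04 over all loci. After the GC correction these medians were 0.67, 0.37 and -0.39. The corrected counts were 27 higher and 11 lower in RT4 cells (35.6% and 33.4% of all loci). They were 22 and 7 in RT112 cells (28.1% and 24.7%), and 8 and 24 in SW780 cells (30.5% and 28.6%). At a limit of 1, a 2-fold change, 19 loci were higher and 6 lower in RT4 cells (18% and 14.1% of all loci). The same limit gave 12 higher and 3 lower in RT112 cells (13.8% and 3.6%), and 4 higher and 7 lower in SW780 cells (10.5% and 7.35%).

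**Figure D1:**
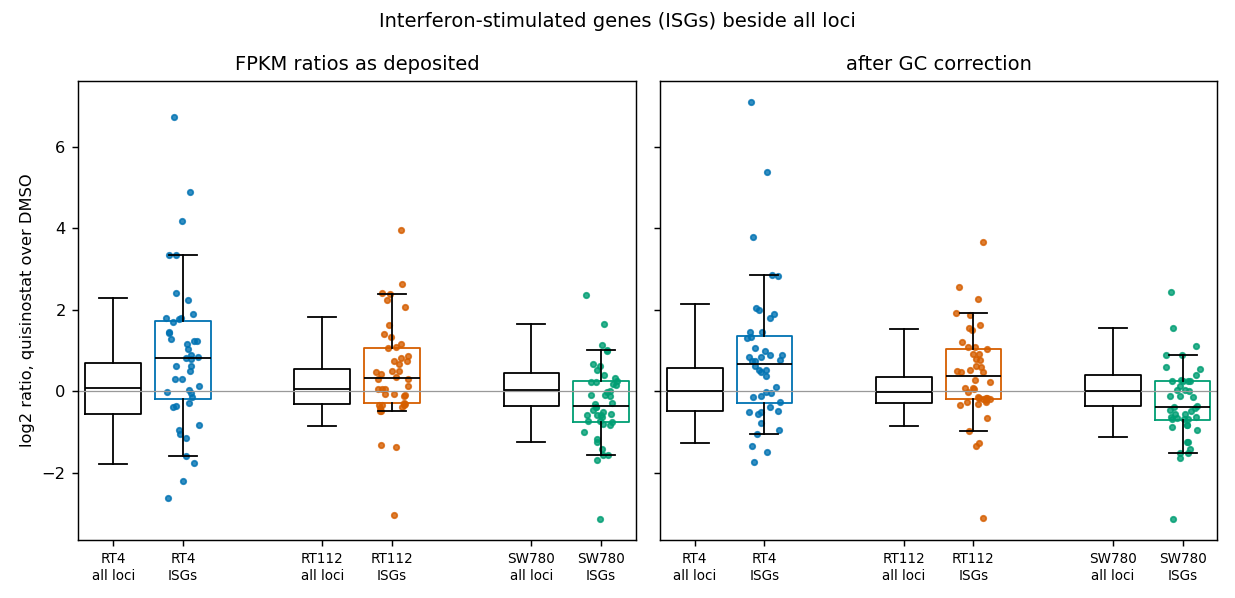
Log2 ratio of FPKM, quisinostat over DMSO, for all loci and for the interferon-stimulated genes (points, 44 loci) in each line, as deposited (left) and after GC correction (right); boxes span the quartiles with the median, whiskers the 5th to 95th percentile. The members' median lies above that of all loci in RT4 (0.82) and RT112 cells (0.34) and below it in SW780 cells (-0.35).

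The ratio in SW780 cells was the lowest of the 3 at 28 of the 44 loci, where 24.8% of all loci had their lowest ratio in that line. RT4 cells had the highest ratio at 24 (41.6% of all loci). RT4 cells had a higher ratio than SW780 cells at 36 loci (52.5% of all loci), and RT112 cells at 33 (49.8%), ISG15 among the 33. Above 0.3 in RT4 cells and below -0.3 in SW780 cells were 10 loci (4.66% of all loci), while no member showed the reverse (3.92%). Of these 10, IFIT3, the IFITM1/IFITM2 locus, MX2, IRF1, PARP9 and PARP14 were above 0.3 in RT112 cells too (6 loci, beside 1.57% of all loci), and IFIT2, OAS1, OAS3 and SAMD9L were below -0.3 there (4 loci, beside 1.71%). Above 0.3 in RT112 and below -0.3 in SW780 cells were 9 loci (9.78%), among them ISG15, which led to the list. After the GC correction IFIT2 left the second group (-0.27 in RT112 cells) and PARP14 the first, which gave 3 loci (1.38% of all loci) and 5 loci (1.40%). The corrected count above 0.3 in RT112 and below -0.3 in SW780 cells was 8 loci, ISG15 again among them, or 18.2% beside 4.76%. With a pseudocount of 1, for which shares of all loci were not counted, IFIT3, MX2 and IRF1 stayed in the first group. IFIT2, OAS1 and SAMD9L stayed in the second. The IFITM1/IFITM2 locus, at no more than 0.0513 FPKM in RT4 and SW780 cells, then had 0.05 and -0.02 there. PARP9 in RT112 (0.27), PARP14 in RT4 (0.28) and OAS3 in RT4 cells (0.29) then fell under 0.3.

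ISG15 (chromosome 1 of GRCh38, 1001138 to 1014540, plus strand, in GENCODE 29) had 1.40 FPKM with DMSO and 0.228 with quisinostat in RT4 cells, 1.20 and 6.33 in RT112 cells, and 6.98 and 2.36 in SW780 cells. It was lower with quisinostat in RT4 and SW780 cells and higher in RT112 cells. Its log2 ratios were -2.62, 2.40 and -1.56, and -1.49, 1.55 and -1.23 after the GC correction. Its transcript has a GC content of 63.4%, where the curve stood at -1.13 for RT4, 0.85 for RT112 and -0.34 for SW780 cells. That direction, higher in RT112 and lower in both other lines, was shared by IFITM3 and LGALS3BP. It was thus seen at 2 of the 43 member loci other than ISG15, and at 7.35% of all loci. After the GC correction IFITM3 had it and LGALS3BP did not, so that 1 of the 43 others did, beside 2.38% of all loci. The summed FPKM of the 17 urothelial and epithelial markers moved the same way, from 1828 to 1034 in RT4, from 1616 to 2552 in RT112 and from 1907 to 1093 in SW780 cells. Abundant genes such as KRT19 weigh most in that sum, and several markers went the other way. In RT4 cells EPCAM went from 62.4 to 94.6 FPKM and CDH1 from 114 to 142. TP63 went from 19.7 to 46.0 in SW780 cells, and PPARG from 86.5 to 51.5 in RT112 cells. The part of the summed markers in these results was not tested.

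Above 0.3 in all 3 lines were 7 loci (IFI6, IFIH1, DDX58, OASL, TRIM21, SP100 and SP110), or 15.9% beside 11.4% of all loci. The same 7 were above it after the GC correction. Below -0.3 in all 3 lines were MX1, OAS2 and GBP3, or 6.82% beside 4.99%. After the GC correction they were MX1, OAS2 and TRIM25, or 6.82% beside 7.73%. At 15 loci, among them ISG15, which led to the list, the ratio was above the limit in 1 line and below it in another. That is 34.1% beside 29.3% of all loci. With the GC correction these were 14 loci, ISG15 again among them, or 31.8% beside 18.2%. For RT112 against RT4 cells these were ISG15, IFITM3, LGALS3BP and PARP12 with the higher ratio in RT112 (4 loci, beside 14.4%), and 5 loci with the higher ratio in RT4 (8.21%). The correction left 3 loci of each kind, beside 5.65% and 5.80%. SAMD9 was below -0.3 in RT112 and above 0.3 in SW780 cells (1 locus, beside 5.11%), and both calls were lost with the correction (-0.17 and 0.13).

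**Figure D2:**
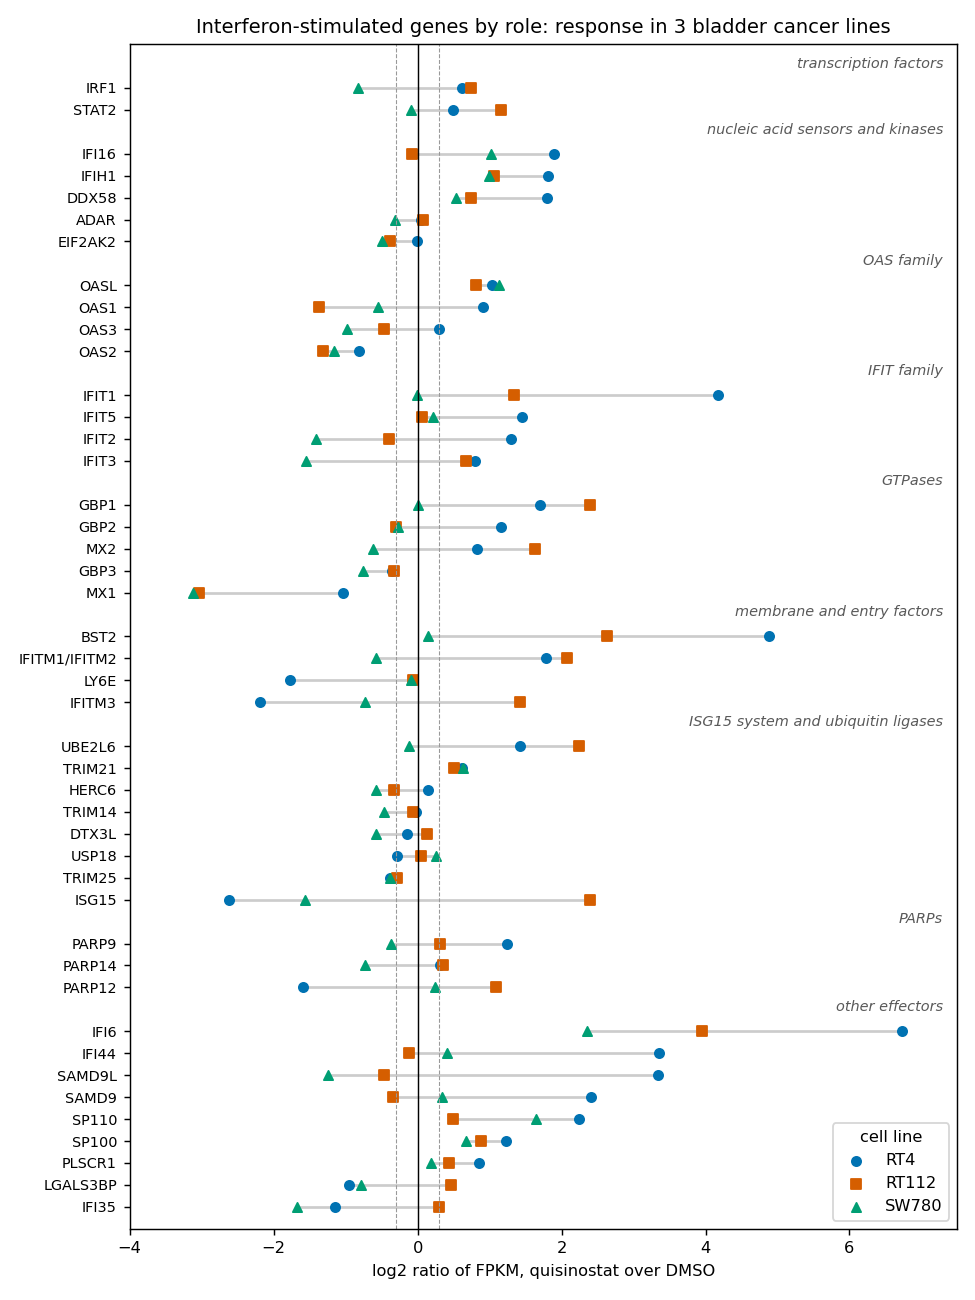
Log2 ratio of FPKM, quisinostat over DMSO, for each of the 44 loci grouped by role, 1 symbol for each line (1 library per treatment); the solid line is 0 and the dashed lines are -0.3 and 0.3. Triangles (SW780) lie leftmost at 28 loci, IFI6 lies rightmost with 6.72 in RT4 cells, and ISG15 spans from -2.62 to 2.40.

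Upstream of these genes stand the receptors and kinases of the interferon pathway and the sensors' adaptors, and 27 of 40 such genes listed were in the table, 26 of them with ratios. In RT4 cells 8 were higher and 8 lower, or 30.8% each (40.3% and 33.5% of all loci). RT112 cells had 13 higher and 4 lower, or 50% and 15.4% (36% and 25.2% of all loci), and SW780 cells had 7 and 8, or 26.9% and 30.8% (32.8% and 28.2%). Their medians were -0.09, 0.29 and -0.05. PTPN2, a phosphatase that acts on JAK1, was lower in all lines, with log2 ratios of -0.56, -0.55 and -0.54. It was the 1 such gene of 26, where 4.99% of all loci were lower in all lines. None was higher in all lines, where 11.4% of all loci were. UBA7, the enzyme that activates ISG15 for attachment, moved in the direction of ISG15. Its FPKM was 12.8 and 2.19 in RT4 cells, 1.40 and 2.09 in RT112 cells, and 7.32 and 1.18 in SW780 cells, and its log2 ratios were -2.55, 0.58 and -2.64. TYK2 and PTPN6, with GC contents of 61.3% and 59.5%, had that direction as well, so 3 of 26 did, beside 7.35% of all loci. After the GC correction the RT112 ratio was 0.15 for UBA7, 0.61 for TYK2 and -0.07 for PTPN6. Of these 3 only TYK2 then kept the direction, which 2.38% of all loci had after the correction.

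Of the transcription factors, STAT2 and IRF1 were in the table. STAT2, part of the complex that binds the response element, had 8.98 FPKM with DMSO and 12.6 with quisinostat in RT4 cells, 5.46 and 12.1 in RT112 cells, and 13.2 and 12.4 in SW780 cells. IRF1, an activator that interferon gamma induces strongly, had 9.48 and 14.5 in RT4 cells, 7.15 and 12.0 in RT112 cells, and 19.1 and 10.7 in SW780 cells. Both were higher with quisinostat in RT4 and RT112 cells, and IRF1 was lower in SW780 cells. The log2 ratios of STAT2 were 0.49, 1.15 and -0.09, and those of IRF1 were 0.61, 0.74 and -0.83.

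The helicases IFIH1 and DDX58, which sense viral RNA, were higher in every line. IFIH1, which encodes MDA5, a sensor of long double-stranded RNA, had 2.35 FPKM with DMSO and 8.20 with quisinostat in RT4 cells, 1.86 and 3.90 in RT112 cells, and 2.68 and 5.34 in SW780 cells. Every quisinostat library stood above all 3 DMSO libraries for this gene. The log2 ratios of IFIH1 were 1.81, 1.07 and 1.00, and 1.45, 1.22 and 0.89 after the GC correction. DDX58, which encodes RIG-I, had log2 ratios of 1.80, 0.74 and 0.53, and its FPKM went from between 1.70 and 3.16 in the DMSO libraries to between 3.40 and 5.91. IFI16, a DNA sensor, was higher in RT4 cells (5.32 to 19.8 FPKM) and SW780 cells (6.60 to 13.4) and close to level in RT112 cells (11.0 to 10.4). The double-stranded RNA kinase EIF2AK2 and the editing enzyme ADAR were above 0.3 in no line. EIF2AK2 had log2 ratios of 0.00, -0.38 and -0.50, and ADAR, at 35.1 to 58.6 FPKM over the 6 libraries, had 0.05, 0.07 and -0.32. DHX58 and DDX60 of this group were not analysed here.

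The oligoadenylate synthetases, which make a small messenger molecule when they meet double-stranded RNA, did not move as a family. OAS1 had 21.3 and 39.9 FPKM in RT4 cells, 64.8 and 25.0 in RT112 cells, and 11.5 and 7.90 in SW780 cells. OAS2 had 12.1 and 6.84, 1.91 and 0.764, and 2.76 and 1.23 in the same order. OAS1 was therefore higher in RT4 cells and lower in both other lines, while OAS2 was lower in all. The log2 ratios were 0.90, -1.37 and -0.55 for OAS1 and -0.82, -1.32 and -1.16 for OAS2. OAS3, among the most highly expressed members with 31.2 to 41.0 FPKM in the DMSO libraries, had 0.30, -0.47 and -0.98. OASL, a family member without synthase activity, was higher in all lines, with 1.03, 0.82 and 1.14. OAS1, OAS2 and OAS3 lie side by side on chromosome 12.

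The IFIT proteins bind viral RNA at its cap or 5′ end, and all 4 loci were higher in RT4 cells. IFIT1 had 0.231 FPKM with DMSO and 4.19 with quisinostat in RT4 cells, 1.16 and 2.94 in RT112 cells, and 1.59 and 1.58 in SW780 cells. IFIT3 had 6.02 and 10.5, 3.70 and 5.89, and 16.1 and 5.50 in the same order. Both were higher in RT4 and RT112 cells, and in SW780 cells IFIT1 was level and IFIT3 lower. The log2 ratios were 4.18, 1.34 and -0.01 for IFIT1 (an 18.1-fold difference in RT4 cells) and 0.80, 0.67 and -1.55 for IFIT3. With a pseudocount of 1 the RT4 ratio of IFIT1 was 2.08. IFIT2, whose locus also carries the name AL353751.1, had 1.29, -0.40 and -1.41, so RT4 and SW780 cells differed in direction. IFIT5 had 1.45, 0.06 and 0.22. The 4 genes are neighbours on chromosome 10.

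Among the GTPases, GBP1 and MX1 moved in opposite directions. GBP1, which coats intracellular pathogens, had 8.44 FPKM with DMSO and 27.3 with quisinostat in RT4 cells, 3.76 and 19.9 in RT112 cells, and 9.96 and 10.0 in SW780 cells. It was higher with quisinostat in both RT4 and RT112 cells (log2 ratios of 1.69 and 2.40) and level in SW780 cells (0.01). MX1, which blocks influenza and related viruses, had 2.42 and 1.18 in RT4 cells, 0.0323 and 0.00395 in RT112 cells, and 3.85 and 0.441 in SW780 cells. MX1 was lower with quisinostat in each line, with log2 ratios of -1.04, -3.03 and -3.13, but in RT112 cells both values were far below 1 FPKM. Its neighbour on chromosome 21, MX2, which acts against HIV, was higher in RT4 and RT112 cells, with 0.83 and 1.63, and lower in SW780 cells, with -0.62. GBP3 had -0.35, -0.32 and -0.76, and its RT112 ratio was -0.16 after the GC correction. GBP2 shares its locus with GBP4, so the 2 genes were not told apart, and that locus had 1.16, -0.30 and -0.27. GBP genes are alike in sequence and lie in a cluster, and how reads were shared between them is not stated.

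BST2, the tetherin that holds budding virus at the cell surface, had the second largest ratio of the members in RT4 cells. It had 0.592 FPKM with DMSO and 17.5 with quisinostat in RT4 cells, 0.875 and 5.43 in RT112 cells, and 48.9 and 54.2 in SW780 cells. BST2 was low in untreated RT4 and RT112 cells and already high in SW780 cells. The log2 ratios were 4.88 (29.5-fold, or 3.54 on the log2 scale with a pseudocount of 1), 2.64 and 0.15, and 5.37, 2.27 and 0.27 after the GC correction. IFITM3, which stops virus entry at the endosome, had 19.0 and 4.15 FPKM in RT4 cells, 8.19 and 21.9 in RT112 cells, and 12.3 and 7.42 in SW780 cells. Its log2 ratios of -2.19, 1.42 and -0.73 had the direction of ISG15. IFITM1 and IFITM2 share 1 locus at 0.0142 to 1.83 FPKM, and the 3 genes are close copies of each other, so these values are uncertain. LY6E, another surface protein with a part in virus entry, was lower in RT4 cells, at 49.3 and 14.5 FPKM, and close to level in RT112 (92.3 and 88.3) and SW780 cells (11.7 and 11.0). Its log2 ratios were -1.77, -0.06 and -0.09, but its GC content of 64.2% was the highest of the members, and after the correction they were -0.56, -0.98 and 0.27.

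**Figure D3:**
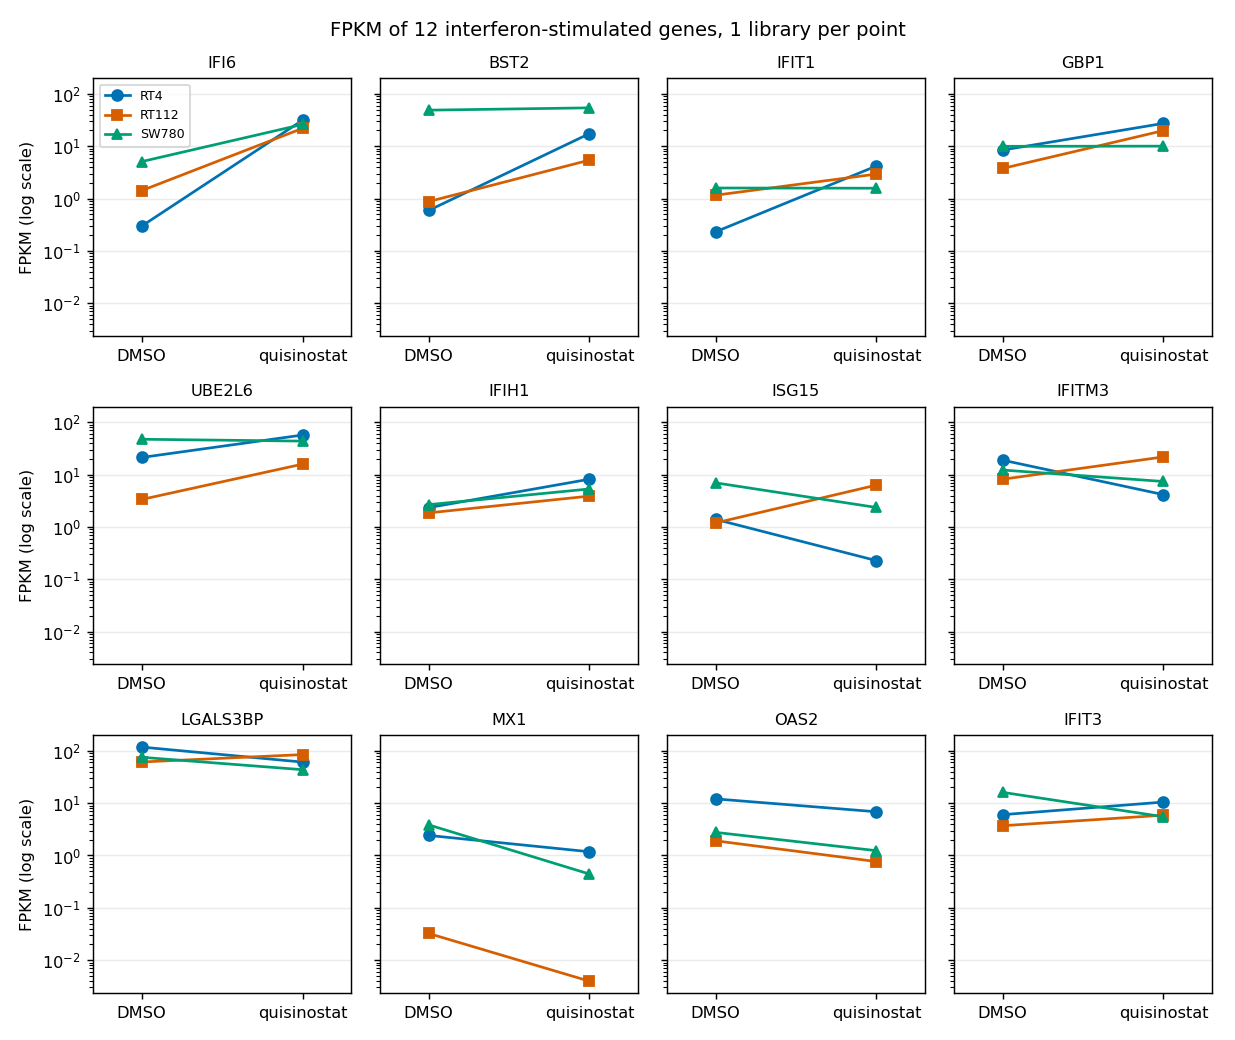
FPKM on a log scale of 12 interferon-stimulated genes with DMSO and with quisinostat, 1 library per point, 1 colour and symbol for each line. IFI6 meets at 22.0 to 31.4 FPKM in all lines with quisinostat, BST2 is high in SW780 cells in both libraries, and the ISG15 lines cross.

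Of the genes that attach ISG15 to proteins or act as ubiquitin ligases, UBE2L6, the conjugating enzyme for ISG15, differed most from ISG15 itself in RT4 cells. UBE2L6 had 21.3 FPKM with DMSO and 57.2 with quisinostat in RT4 cells, 3.36 and 15.9 in RT112 cells, and 47.6 and 43.8 in SW780 cells. It was higher in RT4 and RT112 cells, with log2 ratios of 1.42 and 2.24, and near level in SW780 cells, with -0.12. So in RT4 cells ISG15 and its activating enzyme UBA7 were lower and its conjugating enzyme was higher. USP18, which removes ISG15, had -0.29, 0.05 and 0.26 and passed the limit in no line. TRIM21, a ubiquitin ligase that binds antibodies inside the cell, was higher by nearly equal amounts, with 0.62, 0.51 and 0.63. TRIM25, the ligase linked to RIG-I signalling, had -0.38, -0.29 and -0.39, and TRIM14, HERC6 and DTX3L lay between -0.58 and 0.14.

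The PARP genes of the list encode ADP-ribosyl transferases or related proteins, and PARP9 acts with DTX3L. PARP9 and DTX3L stand head to head on chromosome 3 (122527924 to 122564577 on the minus strand and 122564238 to 122575203 on the plus strand). PARP9 had log2 ratios of 1.24, 0.32 and -0.37, and DTX3L had -0.15, 0.14 and -0.57. PARP14 was higher by little in RT4 and RT112 cells (0.32 and 0.36) and lower in SW780 cells (-0.74), and its RT4 ratio was -0.02 after the GC correction. PARP12 had 3.78 and 1.25 FPKM in RT4 cells, 2.36 and 5.04 in RT112 cells, and 1.80 and 2.13 in SW780 cells. PARP12 was thus lower in RT4 cells, with -1.59, and higher in RT112 cells, with 1.09.

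Among the other effectors, IFI6 showed the largest ratio of all 44 loci in RT4, RT112 and SW780 cells alike. IFI6, a small protein with a part in blocking virus replication at the endoplasmic reticulum, has its gene on the minus strand of chromosome 1 (27666061 to 27672218 in GRCh38). It had 0.297 FPKM with DMSO and 31.4 with quisinostat in RT4 cells, 1.42 and 22.0 in RT112 cells, and 5.08 and 26.1 in SW780 cells. Every quisinostat library stood above all 3 DMSO libraries, and the 3 lines came close together after treatment. The log2 ratios were 6.72 (106-fold, or 4.64 on the log2 scale with a pseudocount of 1), 3.95 (15.5-fold) and 2.36 (5.13-fold), and 7.10, 3.67 and 2.44 after the GC correction. The spread of IFI6 between the lines, as the log2 range of FPKM, was 4.10 with DMSO and 0.52 with quisinostat. SP100 and SP110, proteins of nuclear bodies, were higher in all lines, with 1.23, 0.87 and 0.67 for SP100 and 2.25, 0.49 and 1.64 for SP110.

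SAMD9 and SAMD9L, neighbours on chromosome 7 that restrict poxviruses, were higher mainly in RT4 cells. SAMD9L had 0.150 FPKM with DMSO and 1.52 with quisinostat in RT4 cells, 2.61 and 1.89 in RT112 cells, and 9.15 and 3.85 in SW780 cells. Untreated RT4 cells had the least of it and untreated SW780 cells the most. The log2 ratios of SAMD9L were 3.33, -0.47 and -1.25, and those of SAMD9 were 2.41, -0.34 and 0.33 (1.79, -0.17 and 0.13 after the GC correction). IFI44 had 3.35, -0.12 and 0.40 at no more than 5.96 FPKM. With a pseudocount of 1 the RT4 ratios were 1.13 for SAMD9L and 2.14 for IFI44. LGALS3BP, a secreted glycoprotein and the member with the highest mean FPKM of the 3 DMSO libraries, had 118 and 61.0 FPKM in RT4 cells, 61.2 and 84.8 in RT112 cells, and 75.3 and 43.6 in SW780 cells. Its log2 ratios were -0.95, 0.47 and -0.79, and after the GC correction they were -0.13, -0.14 and -0.55. IFI35 was lower in RT4 and SW780 cells, with -1.14 and -1.67, and just under the limit in RT112 cells, with 0.30 (-0.18 after the GC correction). PLSCR1 had 0.85, 0.44 and 0.19. EPSTI1 was listed at 0 in the DMSO libraries of RT4 and RT112 cells and at 0.776 and 1.47 FPKM with quisinostat. In SW780 cells it had 0.408 and 1.06, and it entered no count of ratios.

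Before treatment the members tended to be highest in SW780 cells, and after treatment in RT4 cells. With DMSO, 22 of the 44 loci had their highest FPKM in SW780, 12 in RT112 and 10 in RT4 cells, where 34.4%, 29.4% and 36.2% of all loci did. With quisinostat 27 were highest in RT4 cells, 10 in RT112 and 7 in SW780 cells, beside 33%, 35% and 32% of all loci. The median FPKM of the 44 loci went from 5.54 to 9.02 in RT4, from 4.03 to 7.16 in RT112 and from 7.73 to 7.37 in SW780 cells. A ratio and its DMSO level share a library, so these counts and the ratios are not independent of each other.

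**Figure D4:**
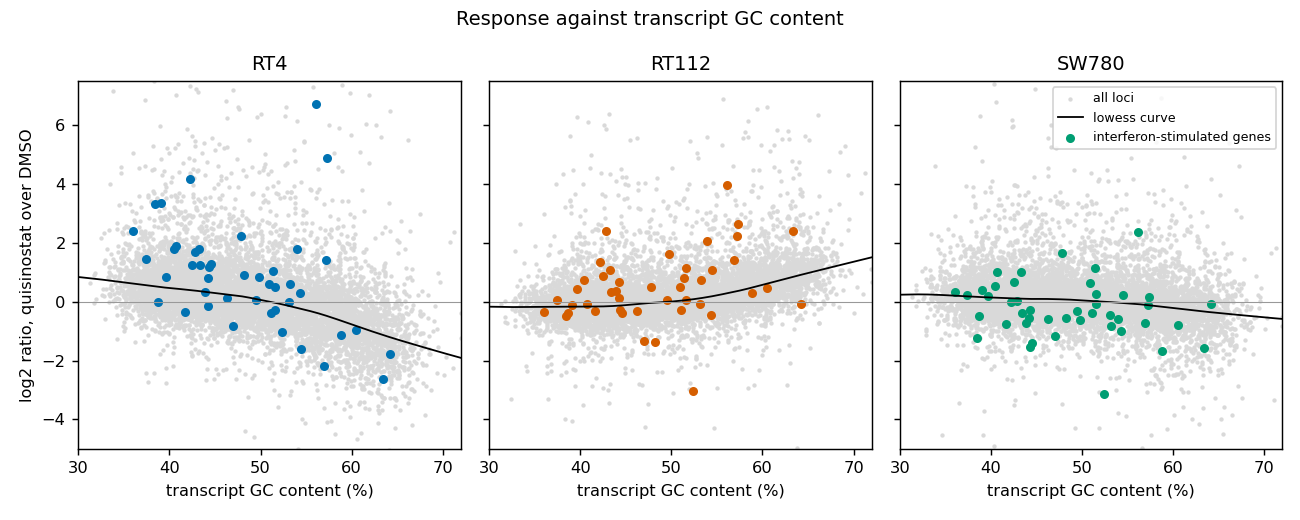
Log2 ratio of FPKM, quisinostat over DMSO, against transcript GC content in percent for all loci (grey; 37, 18 and 15 of 8407 lie outside the axes in RT4, RT112 and SW780 cells), the lowess curve (black) and the interferon-stimulated genes (coloured). The curve falls with GC content in RT4 and SW780 cells and rises in RT112 cells, and members such as IFI6 in RT4 cells (6.72) lie far from it.

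With the 3 lines used as replicates in limma, on log2(FPKM + 1) with line as a block, 0 of 9430 loci had a Benjamini-Hochberg adjusted p under 0.05 (0% of all loci). Without adjustment, 10 of the 43 member loci tested were higher and 1 was lower at p under 0.05, beside 9.68% and 4.16% of all loci. With quantile normalization these were 6 and 2 members, while the calls over all loci went from 913 higher and 392 lower to 638 and 570. IFI6 had the lowest p of the members, with a log2 fold change of 3.35 (standard error 0.47, adjusted p = 0.226 by limma with Benjamini-Hochberg adjustment), and was higher in 3 of 3 lines. The other 9 members with a higher level were IFIH1, SP100, BST2, GBP1, SP110, DDX58, UBE2L6, TRIM21 and OASL, and the lower one was OAS2.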

How the data were processed

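RNA of RT4, RT112 and SW780 cells with quisinostat or DMSO was measured in 6 libraries, 1 per group. One label of the SW780 quisinostat library misspells the line, and its title was used. Libraries were stranded and sequenced on a NovaSeq, and the authors used, per the labels, CASAVA 1.8.2, Trimmomatic 0.36, HISAT2 2.2.1, SAMtools 1.15.1 and StringTie 2.2.1 with GRCh38, followed by Ballgown. The deposited values are FPKM by the authors. The annotation release and the criterion for rows are not given in the sources used here. All 6 value columns were used.

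Rows were reduced to 1 per assembled locus, and log2 ratios, with no pseudocount and no filter, covered the 9112 loci above 0 in all 6 libraries. GC content was the mean over a locus' names of the longest protein-coding transcript in GENCODE 29 (8407 loci, 92.3%), and a lowess curve (span 0.3) was subtracted. limma 3.58.1 in R 4.3.3 used log2(FPKM + 1), a mean FPKM of at least 1, line as a block (both libraries of a pair come from the same line), a trend and Benjamini-Hochberg adjustment. Members, lists and limits were chosen with earlier results of these data known. Named were ISG15, members alike in all lines or with the direction of ISG15, the 5 largest rises and falls per line at a mean FPKM of at least 1, the 5 highest in DMSO, and members at 0 or on shared loci, and other members are given as values by role. Both the limma and the GC steps were tested on simulated data. Python 3.11.15 was used. Values of some pathway genes are not reported here.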

Additional observations from a re-analysis of the deposited data

Results flagged for a closer look

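At 5 members the log2 ratio was at least 1 in 1 line and at most -1 in another, and with 1 library per group none of these differences was tested. ISG15 had 2.40 in RT112 and -2.62 in RT4 cells. IFITM3 had 1.42 in RT112 and -2.19 in RT4 cells, and PARP12 had 1.09 and -1.59 in the same lines. IFIT2 had 1.29 in RT4 and -1.41 in SW780 cells, and SAMD9L had 3.33 and -1.25. Over all loci, 544 of 9112 (5.97%) met the same condition. ISG15 led to the list because of its opposite directions, so its place among the 5 is a description only. PARP12 in RT112 and IFIT2 in RT4 cells were under 1 with the GC correction (0.91 and 0.98) and with a pseudocount of 1 (0.84 and 0.85). ISG15, IFITM3 and SAMD9L met the condition under either setting, but the share of all loci that did so was not counted. ISG15 in RT4 cells had -0.97 with that pseudocount and met the condition through SW780 cells (-1.25).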

How the results depend on the processing

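The members' medians did not change sign in any line with pseudocounts of 0.1 and 1, a mean FPKM of at least 1, the GC correction, centring, a common library sum, or without the loci that carry several names. At a limit of 1 in place of 0.3, 6 loci were lower in RT4 cells. In RT112 cells 12 were higher and 3 lower, and in SW780 cells 4 were higher and 7 lower. IFI6 alone (2.27%) was higher in all lines (3.0% of all loci), and MX1 alone was lower in all lines (0.285%). The only member higher in RT112 and lower in the others was ISG15 (1.04% of all loci had this direction). ISG15 led to the list, so that count is a description only. With a pseudocount of 1, 1 of 45 member loci was lower in all lines, and the share of all loci at that setting was not counted. Member ratios past 0.3 were compared under each alternative, which gave 718 values, with a ratio counted once per alternative. These are not independent checks, since leaving out loci cannot change a ratio. Centring and a common library sum moved 0 of 132 member ratios by at least 0.3. Of the 718 values, 2 changed sign, both with the GC correction: LGALS3BP in RT112 (-0.14) and PARP14 in RT4 cells (-0.020). Of 132 member ratios, 31 moved by at least 0.3 with a pseudocount of 1 and 34, besides these 2, with the GC correction. In limma 0 loci passed with every alternative, also with no replicate block, where 4 members were higher and 0 lower at an unadjusted p-value under 0.05, beside 3.33% and 1.12% of all loci (10 and 1 with the block). These were 1 and 2 without RT4 (5.54% and 2.55% of all loci), 6 and 6 without RT112 (12.4% and 9.43%) and 5 and 0 without SW780 cells (4.14% and 0.785%). As a description, the log2 fold change of ISG15 was -0.16 over the 3 lines and, leaving out 1 line, ranged from -1.11 to 0.38 (0.24 without RT4 and 0.38 without SW780 cells). Depth is unknown, so the error of members under 1 FPKM, such as MX1 in RT112 cells, could not be estimated.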
